A study of Mus musculus with 3 samples.

Results

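The netrin and Slit guidance genes Unc5a, Unc5b, Unc5c, Unc5d, Dcc, Robo1, Robo2, Slit1, Slit2 and Slit3 were examined in ATAC-seq peak lists of mouse embryonic stem cells. ATAC-seq marks open chromatin by where the Tn5 transposase can insert sequencing adapters. A peak belonged to a gene when its midpoint lay inside the gene or within 10 kb of it on the mouse build GRCm38. This gave 203 of 88898 peaks in the Halo-Sox2 list, 149 of 83995 in the Halo-Sox2a list and 136 of 72638 in the control list. Merging overlapping peaks of the 3 lists left 284 regions at these genes, of 130664 in the genome. The genes were chosen by peak presence and score rank, after high-ranking Halo-Sox2 peaks of Unc5d had been seen, and the same quantities are described here. All values are therefore descriptions, without a test.

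The libraries came from lines derived from CGR8, a mouse embryonic stem cell line, all grown with LIF, CHIR99021 and PD184352. Line SES4.1 carried a doxycycline-inducible Halo-Sox2 and received 300 ng/mL doxycycline for 20 h. Line SES5.1 carried an inducible Halo-Sox2a, which the labels do not describe further, and received 70 ng/mL for 20 h. Both proteins were stained through the Halo tag with 50 nM of a SiR dye, and cells were sorted in a common fluorescence gate. Line SES11, the control, had no inducible transgene, and the labels do not say whether it was treated, stained or sorted. Each group is 1 library of 1 line, so group, line, dose and library cannot be told apart, and no difference could be set against a spread between replicates. Sequencing depth is unknown from peak lists, and the Halo-Sox2 list is the longest. Where 3 values follow each other without names, the order is Halo-Sox2, Halo-Sox2a, control.

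Netrins and Slits are secreted cues that steer growing axons and migrating cells. Dcc is the netrin receptor that mediates attraction, the Unc5 proteins are netrin receptors that mediate repulsion, and Robo1 and Robo2 are receptors that respond to Slit proteins with repulsion. In the nervous system these genes are active in neurons and at the midline, and most of them span very long stretches of DNA. Sox2 is an HMG-box factor of pluripotent and neural progenitor cells that can bind sites in closed chromatin.

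The labelled cell type was looked at through marker genes. All 10 pluripotency markers (Pou5f1, Nanog, Sox2, Esrrb, Zfp42, Tfcp2l1, Klf4, Dppa5a, Fgf4 and Tdgf1) had at least 2 peaks in or within 10 kb of the gene in every list. A peak midpoint within 1 kb of a gene end was found for 6, 8 and 8 of them, with Pou5f1 and Esrrb lacking it in all 3. The 10 neural markers had such a peak for 10, 9 and 9 genes, against 62.4%, 63.2% and 62.8% of all protein-coding genes. Gene-end peaks thus did not separate the cell types, and the stem cell identity rests on the labels. In the map of genes used here, strand, exons and introns are not annotated, so a region inside a gene is given by its distance from the gene's ends.

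Pooled over the 10 genes, there were more peaks per Mb in the Halo-Sox2 list than in the other lists. In every list the pooled density was below that near other genes. Density was 33.8 peaks per Mb for Halo-Sox2 (exact Poisson 95% interval 29.3 to 38.8), 24.8 for Halo-Sox2a (21.0 to 29.1) and 22.6 for the control (19.0 to 26.8). Near all 21900 protein-coding genes the densities were 47.3, 45.2 and 37.8 per Mb, so the guidance genes stood at 0.714, 0.549 and 0.598 times that level. Near the 2421 other protein-coding genes of 100 kb or more, densities were 38.1, 32.7 and 26.6 per Mb, and the guidance genes stood at 0.886, 0.759 and 0.849 times that level. The Halo-Sox2 list held 1.49 times as many peaks as the control at the guidance genes, against 1.43 times at other long genes. For the Halo-Sox2a list the ratios were 1.10 and 1.23. The ratio for Halo-Sox2 was thus close to that of long genes in general. The intervals cover counting error only.

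By gene, 9 of the 10 had more Halo-Sox2 than control peaks and Unc5a had fewer, against 73.2% of other long genes with more. More Halo-Sox2a than control peaks were found at 4 genes, fewer at 4 and equal numbers at 2, against 63.0% of other long genes with more. The genes with more Halo-Sox2a peaks were Unc5b, Robo1, Robo2 and Slit3.

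**Figure D1:**
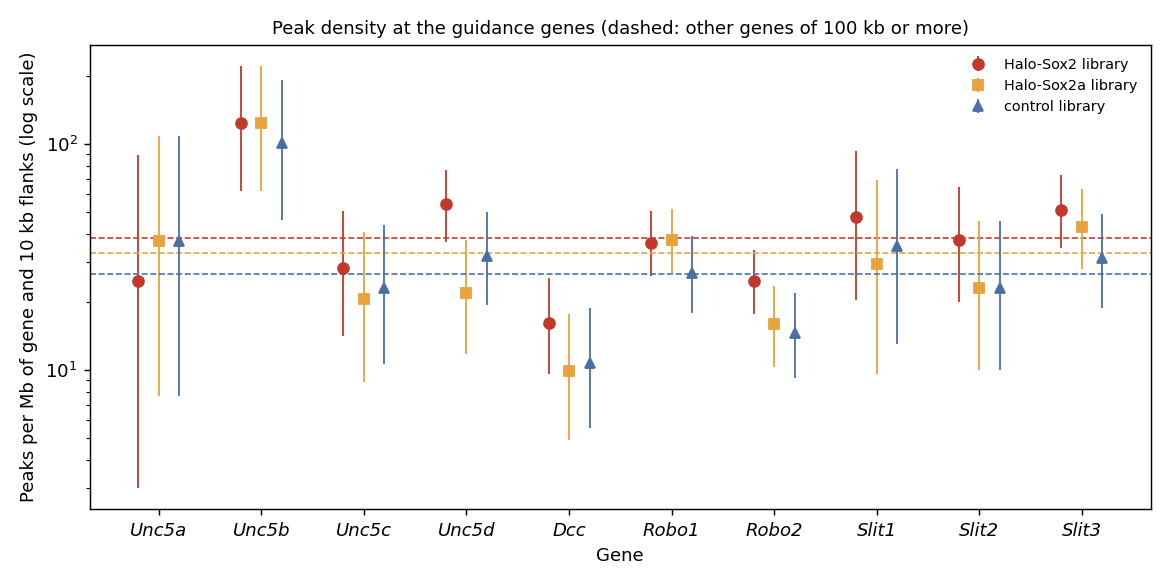
Peaks per Mb (log scale) at each gene with its 10 kb flanks in the 3 libraries. Bars are exact Poisson 95% intervals and dashed lines give the density near other genes of 100 kb or more in the same library. Dcc, Robo2, Slit2 and Unc5c lie below the dashed line of every library, Unc5b lies above all of them, and at Unc5d the Halo-Sox2 point (54.0) stands above the Halo-Sox2a point (21.9).

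Among the secreted ligands, Slit3 had the highest density in the transgene libraries (51.1 and 42.8 per Mb), Slit1 had the highest in the control (35.4 per Mb), and Slit2 had the lowest in each library (37.5, 23.1 and 23.1 per Mb). Slit3 (chromosome 11, 35121456 to 35708507) had 31 Halo-Sox2, 26 Halo-Sox2a and 19 control peaks. Slit2 (chromosome 5, 47981291 to 48307735) had 13, 8 and 8, and Slit1 (chromosome 19, 41597824 to 41747275) had 8, 5 and 6. In all 3 ligand genes the Halo-Sox2 list held the most peaks.

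The highest Halo-Sox2 peaks of Slit3 and Slit2 lay far inside the genes and ranked higher in the Halo-Sox2 library than in the control. In Slit3, 403 kb from the lower-coordinate end, a region from 35523656 to 35524441 had a score of 1003 (rank 1397) in the Halo-Sox2 list and 914 (rank 437) in the Halo-Sox2a list. The control score there was 167 (rank 17465, percentile 76.0). Scores are the authors' and share no scale between lists, so ranks and percentiles within a list carry the comparison, with percentile 100 for the highest score. A second Slit3 region, 35415782 to 35416879, stood at percentiles 91.8, 93.3 and 37.5. At both Slit3 regions the transgene libraries ranked high and the control lower. The highest control peak of Slit3 (35367391 to 35367614, percentile 83.6) had a Halo-Sox2a counterpart at 62.9 and none in Halo-Sox2.

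In Slit2, a region 282 kb inside the gene (48263267 to 48263851) had rank 830 and a score of 1119 for Halo-Sox2. Its percentile was 75.0 for Halo-Sox2a (score 208) and 63.9 for the control (score 117). Here the Halo-Sox2 library alone ranked the region near its top. Slit1 had no peak above percentile 80.0 in any list. Its highest Halo-Sox2 peak (41717319 to 41717688, score 376) and highest Halo-Sox2a peak (41676337 to 41676937, score 172, percentile 68.8) were absent from the other lists.

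Slit2 and Slit3 each host a copy of the microRNA miR-218, which is known to repress Robo1 and Robo2. The sequences are shown because this microRNA links the Slit genes to their receptors. The mature 5p strand is identical from both genes and the 3p strands differ, and capitals mark the seed (bases 2 to 8, RefSeq, GRCm38.p6).
mmu-miR-218-5p: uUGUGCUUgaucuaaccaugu
mmu-miR-218-1-3p: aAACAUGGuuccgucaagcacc
mmu-miR-218-2-3p: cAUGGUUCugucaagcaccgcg
The hairpin in Slit2 lies at chr5:48223942-48224051 and the hairpin in Slit3 at chr11:35616816-35616925, both on the plus strand. From midpoint to midpoint, the nearest peak to the Slit2 hairpin was 39.6 kb away for Halo-Sox2, 17.0 kb for Halo-Sox2a and 17.1 kb for the control. For the Slit3 hairpin the distances were 22.3, 48.3 and 12.7 kb. The closest peak of any list to either hairpin was thus 12.7 kb away.

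The Slit receptors Robo1 and Robo2 carried 115 of the 284 regions. Robo1 (chromosome 16, 72027518 to 73047491) had 38 Halo-Sox2, 39 Halo-Sox2a and 28 control peaks. Robo2 (chromosome 16, 73891976 to 75447443), the longest of the genes, had 39, 25 and 23. The Halo-Sox2a library thus matched Halo-Sox2 in number at Robo1 and was close to the control at Robo2.

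In Robo1 the 7 regions held by both transgene libraries without the control all lay between 493 and 761 kb from the lower end of a gene of 1020 kb. Robo1 regions of every other class, including the control alone, lay in that stretch too, so it was not particular to this class. A region from 72693050 to 72694216, 666 kb from that end, ranked 2250 in the Halo-Sox2 list (score 894) and 12700 in the Halo-Sox2a list (score 302, percentile 84.9), without a control peak. Another, 72755553 to 72756201, stood at percentiles 96.6 and 65.4 without a control peak, and 72787910 to 72788516 stood at 70.7 and 90.3. Next to the first, 72687821 to 72688827 stood at percentiles 95.4, 57.8 and 20.2. Robo1 also held the highest regions of Halo-Sox2a alone, 72649386 to 72649988 (percentile 77.9) and 73012501 to 73013149 (percentile 71.9), and the highest region of the control alone, 72475090 to 72475284 (percentile 60.1).

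In Robo2 the highest Halo-Sox2 peak (75294107 to 75294951, score 618, rank 7114) had a Halo-Sox2a counterpart at percentile 72.4 and none in the control. The highest control peak of Robo2 (74887596 to 74888261, score 500, rank 1318) went the other way. It stood at percentile 98.2 for the control, 91.8 for Halo-Sox2a and 78.3 for Halo-Sox2. A region just inside the lower end (73896881 to 73897264) stood at 89.0 in the control, 91.2 in Halo-Sox2a and 13.1 in Halo-Sox2. At this pair of regions Halo-Sox2a resembled the control in rank and Halo-Sox2 was lower.

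Dcc (chromosome 18, 71253613 to 72351228), the attractive netrin receptor, was the most sparsely covered gene, with 18 Halo-Sox2, 11 Halo-Sox2a and 12 control peaks, or 16.1, 9.84 and 10.7 per Mb. Its highest Halo-Sox2 peak (71617251 to 71618188, score 1051, rank 1148) was in no other list. The highest control peak (71548641 to 71549091, percentile 88.4) had a Halo-Sox2a counterpart at percentile 8.13 and none in Halo-Sox2. The highest Halo-Sox2a peak of Dcc lay in a region (71503224 to 71504182) at percentiles 66.0, 90.8 and 85.0. The peak at the upper end of Dcc was low everywhere, at percentiles 34.0, 15.4 and 32.9.

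Unc5d (chromosome 8, 28646717 to 29219671), a repulsive netrin receptor gene, held 32 Halo-Sox2, 13 Halo-Sox2a and 19 control peaks, all inside the gene body. The densities were 54.0, 21.9 and 32.0 per Mb. Over 500 kb on each side of the gene and its flanks, the densities were 20.0, 17.0 and 22.0 per Mb. The Halo-Sox2 library was thus denser within Unc5d than beside it by more than the other libraries were.

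Above percentile 90 stood 7 of the 32 Halo-Sox2 peaks of Unc5d, 3 of the 13 Halo-Sox2a peaks and 2 of the 19 control peaks. Near other long genes it was 9.96%, 8.55% and 8.72% of peaks. The Halo-Sox2 list thus held more such peaks in Unc5d, and also more peaks in all. The highest Halo-Sox2 peak (28827294 to 28828081, 181 kb from the lower end) had a score of 1996 and ranked 22 of the list. It had a Halo-Sox2a peak of 216 at percentile 75.9 and no control peak. A region from 29035396 to 29037072 ranked 89 in the Halo-Sox2 list (score 1587), stood at 93.3 in Halo-Sox2a (score 455) and at 42.7 in the control (score 67). It is followed along the gene by the region of Halo-Sox2 alone at 29049237 to 29050151 (score 1598, rank 86). Another Halo-Sox2 peak above percentile 97 in no other list was 29187997 to 29188324 (score 927, rank 1943).

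The Unc5d peak at the upper end of the gene ranked alike in all libraries, at percentiles 97.1, 95.8 and 97.1. In contrast, a region at 122 kb (28768059 to 28769225) stood at 46.8 in Halo-Sox2, 93.3 in Halo-Sox2a and 95.1 in the control. Within the same gene, regions that ranked far above the control in Halo-Sox2 thus lay between regions that ranked far below it.

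Of the 12 guidance regions held by Halo-Sox2 and the control without Halo-Sox2a, 6 were in Unc5d, among 39 regions of that gene. The control percentile of these 6 was between 5.01 and 49.6. The class made up 4.23% of the guidance regions and 2.45% without Unc5d, against 1.90% in the genome and 1.78% near other long genes. At 28728122 to 28728818 the Halo-Sox2 peak ranked 1095 and the control peak stood at percentile 5.01.

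The other Unc5 receptors differed from Unc5d. Unc5c (chromosome 3, 141465564 to 141834924) had 11 Halo-Sox2, 8 Halo-Sox2a and 9 control peaks. Its highest Halo-Sox2 peak (141530294 to 141530840, score 716, rank 4841) was in no other list. The highest peak of both other lists, 354 kb from the lower end, stood at percentile 88.1 in Halo-Sox2a, 96.6 in the control and 80.4 in Halo-Sox2.

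Unc5b (chromosome 10, 60762594 to 60831581) had 11 Halo-Sox2, 11 Halo-Sox2a and 9 control peaks, the highest density of the set in each library, at 124 per Mb in both transgene libraries. Its highest peak in every list lay 9.78 to 9.92 kb outside the gene, over an annotated promoter and within 1 kb of the neighbouring gene Slc29a3. These were the peaks just inside the 10 kb limit, and the nearest one beyond it was a Halo-Sox2 peak 12.2 kb from Robo2 (percentile 93.6). Unc5a (chromosome 13, 54945151 to 55006018), the shortest gene, had 2, 3 and 3 peaks, too few to order the libraries.

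**Figure D2:**
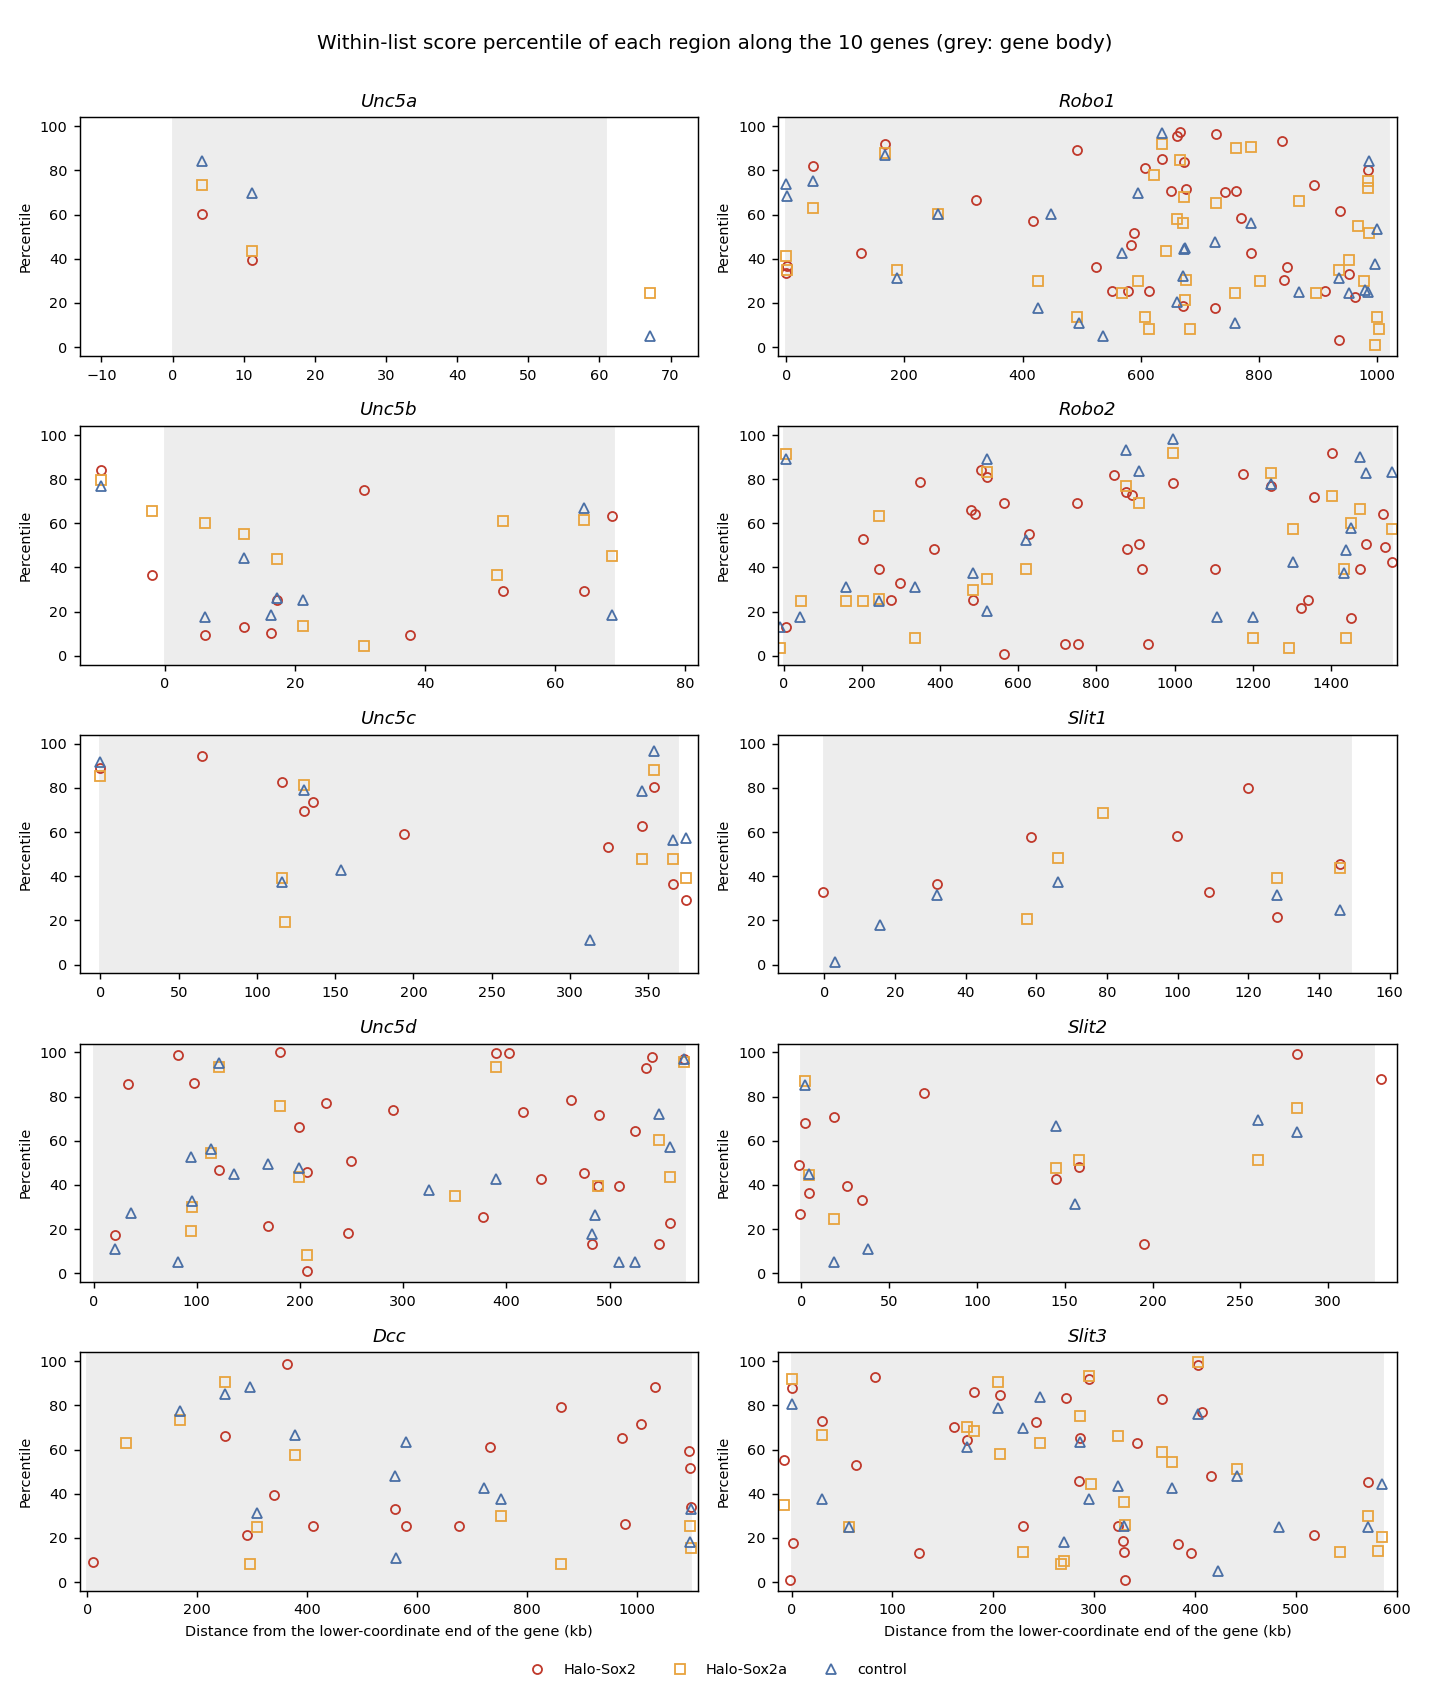
Within-list score percentile (vertical axis) of the highest peak of each library in each region, against distance in kb from the gene's lower-coordinate end, with the gene body in grey. In Unc5d, Halo-Sox2 points without a partner at the same position reach the top of the panel at 403 kb and 541 kb, whereas at 572 kb the 3 libraries coincide.

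Start sites were examined next, because open promoters are a common feature of stem cell chromatin even at genes that become active later. RefSeq promoter windows, from 250 bases before to 50 after a start site, were given for 9 sites of 7 genes, Unc5d, Dcc and Slit1 not among them. A Halo-Sox2 peak overlapped 8 of the 9, a Halo-Sox2a peak 9 and a control peak 9, against 45.8%, 46.5% and 45.6% of all 32851 windows. All 3 lists had a peak over 8 of them, against 42.0%. The exception was the middle window of Robo2, with a Halo-Sox2a peak at percentile 8.13 and a control peak at 17.7.

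The sequences show how these windows differ in CpG content, which is high at many promoters. Each line gives the 250 bases before the start site on GRCm38.p6, 5′ to 3′ on the gene's own strand, with CpG pairs in capitals.
Robo2 outer window (chr16:75447294-75447543, minus strand): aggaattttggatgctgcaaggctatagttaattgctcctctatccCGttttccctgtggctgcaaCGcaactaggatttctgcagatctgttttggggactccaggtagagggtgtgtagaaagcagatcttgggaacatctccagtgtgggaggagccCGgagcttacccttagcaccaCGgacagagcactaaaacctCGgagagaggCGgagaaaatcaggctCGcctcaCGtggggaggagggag
Robo2 middle window (chr16:75092771-75093020, minus strand): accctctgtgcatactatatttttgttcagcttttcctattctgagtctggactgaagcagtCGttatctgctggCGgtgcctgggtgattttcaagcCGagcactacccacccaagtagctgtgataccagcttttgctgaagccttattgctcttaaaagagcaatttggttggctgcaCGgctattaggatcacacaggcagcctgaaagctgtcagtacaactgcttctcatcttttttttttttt
Unc5b (chr10:60831582-60831831, minus strand): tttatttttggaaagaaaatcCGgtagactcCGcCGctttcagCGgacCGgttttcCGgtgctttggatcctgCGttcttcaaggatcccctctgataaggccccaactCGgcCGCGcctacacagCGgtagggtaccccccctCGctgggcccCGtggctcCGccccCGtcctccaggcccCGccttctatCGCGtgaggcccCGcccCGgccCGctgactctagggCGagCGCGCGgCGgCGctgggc
Slit3 (chr11:35121206-35121455, plus strand): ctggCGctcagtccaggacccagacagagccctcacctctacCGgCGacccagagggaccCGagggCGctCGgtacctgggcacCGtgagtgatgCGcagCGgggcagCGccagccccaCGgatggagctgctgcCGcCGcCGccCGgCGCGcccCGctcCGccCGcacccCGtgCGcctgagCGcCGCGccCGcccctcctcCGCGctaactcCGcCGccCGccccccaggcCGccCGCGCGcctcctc
These hold 8, 4, 27 and 35 CpG pairs in that order. The middle window of Robo2 had the fewest of the 9 and Slit3 the most.

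In the control library, promoter percentiles were 96.8 at Robo1, 91.7 at Unc5c, 84.3 at Unc5a, 85.1 at Slit2, 80.7 at Slit3 and 12.9 at Unc5b. In the Halo-Sox2 library the same promoters stood at 85.4, 89.2, 60.4, 67.9, 87.9 and 63.3, and in the Halo-Sox2a library at 92.1, 85.3, 73.6, 87.0, 92.1 and 45.3. The Robo1 window lay inside the gene, in a region 636 kb from its lower end. Within 1 kb of that end, where no window was given, the Robo1 peaks stood at percentiles 33.7, 41.2 and 73.8. The outer window of Robo2 stood at 42.6 in Halo-Sox2, 57.4 in Halo-Sox2a and 83.3 in the control, and the inner window at 81.2, 83.2 and 89.1. The Halo-Sox2 percentile was below that of the control at 6 of 8 windows, the exceptions being Unc5b and Slit3. This share is near that of all 13809 windows with a peak in every list, of which 70.4% had the lower percentile in Halo-Sox2. For Halo-Sox2a it was 5 of 8, against 47.4%. Median percentiles over all those windows were 77.7, 84.2 and 83.4.

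The letters ACAAT, the core of the SOX motif, were searched on both strands in the 300-base windows. They occur in 31.0% of all windows and, among the 9, at Unc5b alone, where the match starts at base 1 of the transcript. The octamer ATTTGCAT, the site of Oct4, occurs in 1.74% of all windows and in none of the 9. Such a match only describes the letters of a short window.

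**Figure D3:**
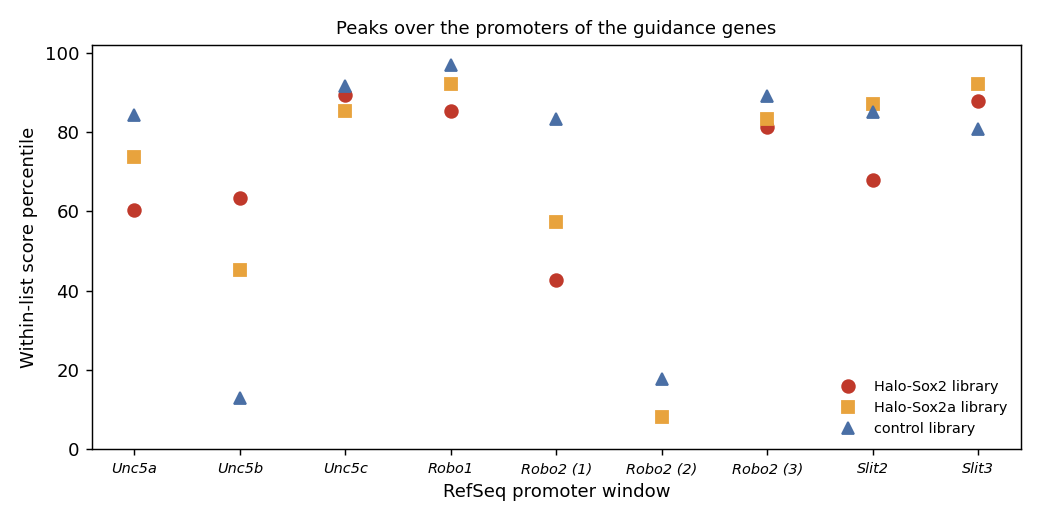
Within-list score percentile of the highest peak over each RefSeq promoter window, by library; Robo2 (1), (2) and (3) are its outer, middle and inner windows. Control points lie above Halo-Sox2 points at 6 windows, with the widest gap in the other direction at Unc5b (63.3 against 12.9).

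Among all regions of the 10 genes, Halo-Sox2 peaks without a partner were the most numerous class. Of the 284 regions, 105 (37.0%, 95% Wilson interval 31.6 to 42.7%) were held by the Halo-Sox2 list alone, against 24.3% in the genome and 29.6% near other long genes. The Halo-Sox2a list alone held 22 (7.75%, 5.17 to 11.4%), against 12.2% and 12.0%. Both proteins without the control held 22 (7.75%), against 8.95% and 10.1%, and the control alone held 20 (7.04%), against 10.2% and 8.84%. Halo-Sox2a and the control without Halo-Sox2 held 40 (14.1%), against 10.3% and 9.20%. All 3 lists held 63 (22.2%, 17.7 to 27.4%), against 32.1% and 28.5%. Per Mb, regions of Halo-Sox2 alone numbered 17.5 at the guidance genes, 16.0 near other long genes and 15.2 near all protein-coding genes. Regions of all 3 lists numbered 10.5, 15.4 and 24.1 per Mb in the same sets. The higher share of Halo-Sox2 alone thus went mostly with fewer shared regions.

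Pooled over 20 long neural genes outside guidance, a like share of Halo-Sox2 alone was found. There 344 of 914 regions (37.6%, 34.6 to 40.8%) were of that class. Single genes varied widely, from 2 of 22 regions at Csmd3 to 9 of 14 at Nrg3. Nrxn3 (33 of 76), Ntm (30 of 53) and Csmd1 (34 of 69) were above the pooled share, and Lrp1b (7 of 33) and Sgcz (6 of 27) below it. Over the same 20 genes, other classes differed from those of the guidance genes. Control alone made up 13.3% (11.3 to 15.7%), against 7.04% (4.60 to 10.6%) at the guidance genes. Halo-Sox2a and the control made up 8.53% (6.89 to 10.5%), against 14.1% (10.5 to 18.6%). Among the guidance genes, the share of Halo-Sox2 alone was 48.1% at Dcc (13 of 27) and 47.2% at Robo2 (25 of 53). It was 43.8% at Slit2 (7 of 16) and 41.0% at Unc5d (16 of 39). It was 38.5% at Slit1 (5 of 13), 36.4% at Slit3 (16 of 44), 29.0% at Robo1 (18 of 62) and 28.6% at Unc5c (4 of 14). Unc5b had 1 such region of 13 and Unc5a none of 3. Among 1594 protein-coding genes of 100 kb or more with at least 10 regions, Dcc ranked 152, Robo2 170, Slit2 230 and Unc5d 315 by this share. By regions of Halo-Sox2 alone per Mb, among 2429 genes of 100 kb or more, they ranked 1541, 1154, 870 and 483. The high share of Dcc thus went with few regions in all, 11.6 per Mb of this class and 24.2 of any.

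**Figure D4:**
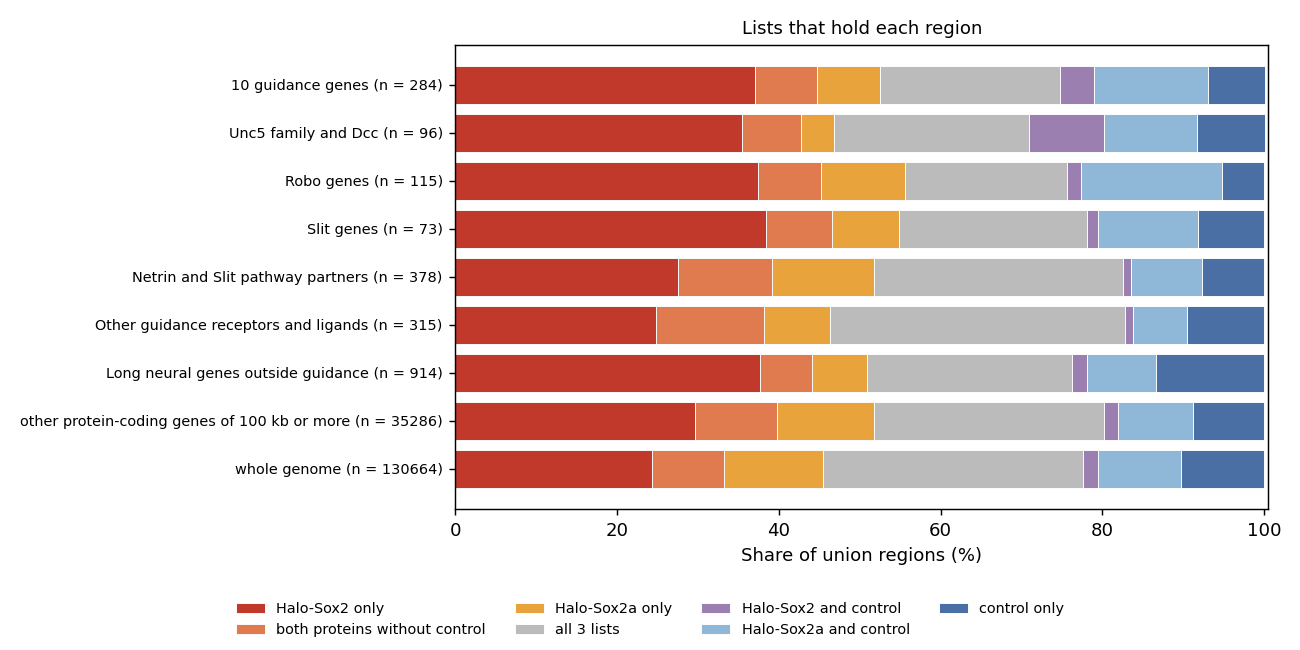
Share of union regions (%) by the lists that hold them, for the guidance genes, related gene lists, other protein-coding genes of 100 kb or more and the whole genome; n is the number of regions. The dark red segment (Halo-Sox2 alone) is 37.0% at the guidance genes, 37.6% at long neural genes outside guidance and 24.3% in the genome.

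Promoter overlap and width of the regions of Halo-Sox2 alone were not themselves used in choosing the genes, but are not independent of that choice. Most of the chosen genes are long, and width was not separated from score, so both are descriptions. None of the 105 overlapped a RefSeq promoter window of any gene, which allows a share of up to 2.86%, against 65 of 10443 such regions (0.622%) near other long genes. The limit lies above that share, so no difference is shown. Of the 63 regions of all 3 lists, 9 (14.3%) overlapped one, against 20.8% near other long genes. No window was given for Unc5d, Dcc and Slit1, so overlap with their own start sites could not be found in either class. These genes held 16, 13 and 5 of the 105 regions. Median width was 409 bp for the Halo-Sox2 regions and 786 bp for those of all 3 lists, in part because merged regions extend with each added peak. Near other long genes these widths were 386 and 826 bp. Score rank entered the choice directly, and is also given as a description only. The median score percentile of the regions of Halo-Sox2 alone was 51.7, against 39.5 near other long genes, and 21 of 105 (20.0%) stood above percentile 75, against 14.9%. Unc5d held 7 of these 21. For regions of Halo-Sox2a alone the median percentile was 27.8, against 20.3 near other long genes, and for the control alone 21.2, against 18.7.

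Within the 63 regions of all 3 lists, ranks differed between libraries. The Halo-Sox2 percentile was below the control in 39 (61.9%), against 60.6% near other long genes. It was lower by at least 25 points in 16 (25.4%, against 18.6%) and higher by at least 25 points in 10 (15.9%, against 13.2%). The share below the control is close to that of long genes in general. For Halo-Sox2a, 28 of 63 (44.4%) stood below the control, against 42.0%.

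Read per peak, 128 of the 203 Halo-Sox2 peaks (63.1%, 56.2 to 69.4%) overlapped no control peak, against 49.3% of the whole list and 56.6% near other long genes. For Halo-Sox2a it was 44 of 149 (29.5%, 22.8 to 37.3%), against 33.4% and 37.0%. These comparisons share the control list. Set directly against each other, 117 Halo-Sox2 peaks (57.6%, against 38.7% of the list and 44.6% near other long genes) had no Halo-Sox2a partner, and 64 Halo-Sox2a peaks (43.0%, against 35.4% of both) had no Halo-Sox2 partner. With lists cut to the length of the shortest, 63.6% of Halo-Sox2 and 26.0% of Halo-Sox2a peaks lacked a control partner. With the full lists and without Unc5d it was 63.2% and 29.4%. For the cut lists, the matching shares of the whole lists and near other long genes were not computed.

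Other genes of the pathway had a lower share of regions of Halo-Sox2 alone, near that of the genome, but a like ratio of peak numbers. Many of these genes are shorter than 100 kb, and the share was not compared at matched gene length. Partners of netrin and Slit signalling (28 genes, among them the netrin Ntn1, the Dcc relative Neo1, the Unc5 ligands Flrt1, Flrt2 and Flrt3, and the Robo effectors Srgap1, Srgap2 and Srgap3) held 274 Halo-Sox2, 246 Halo-Sox2a and 185 control peaks. The Halo-Sox2 number was 1.48 times that of the control. More Halo-Sox2 than control peaks were found at 17 of the 28, fewer at 7 and equal numbers at 4. Of all 21900 protein-coding genes, 8686 had more, 4565 fewer and 8649 equal numbers. For Halo-Sox2a it was 20 with more, 4 with fewer and 4 equal, against 8360, 3472 and 10068 of all genes. Srgap2, a GTPase-activating protein that binds Robo receptors, had 16, 11 and 4 peaks, and Flrt1 had 2, 3 and 6. Regions of Halo-Sox2 alone made up 27.5% (23.3 to 32.2%) of 378, against 24.3% in the genome and 29.6% near other long genes.

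Semaphorin, plexin, neuropilin, ephrin and Eph genes (27), several of them shorter than 100 kb, held 243, 207 and 174 peaks. There were more Halo-Sox2 than control peaks at 19, fewer at 2 and equal numbers at 6. Of other long genes, 73.2% had more. Of all 21900 protein-coding genes 8686 had more, 4565 fewer and 8649 equal numbers. Regions of Halo-Sox2 alone were 24.8% (20.3 to 29.8%) of 315 there, close to the share in the genome. At the 20 long neural genes, Halo-Sox2 exceeded the control at 17 genes and Halo-Sox2a at 9, with fewer Halo-Sox2a peaks at 10, against 73.2% and 63.0% of other long genes with more. Side by side, the share of Halo-Sox2 alone was 37.0% at the 10 genes and 37.6% at the long neural genes. It was 27.5% at the partners and 24.8% in the semaphorin and ephrin group, both with more genes shorter than 100 kb than the other sets. Peak presence entered the choice of the 10 genes, so this is a description and was not tested.

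Genes whose make-up was closely like that of Unc5d were Esrrg, Zfhx4, Ntng1 and Tnr, among 1593 other long genes with at least 10 regions. Likeness was the total variation distance between the shares of a gene's regions over the 7 combinations of lists (0 for identical shares), and was between 0.0894 and 0.117 for these 4. The closest of the other guidance genes was Slit1 at rank 57, with a distance of 0.179, and Unc5c was at rank 1175. With 39 regions in Unc5d and 11 in Zfhx4, single regions weigh heavily in such a measure.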

How the data were processed

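ATAC-seq was read from 1 peak list per library. The deposited score of each peak is a whole number without a stated scale, lowest 13 in every list. Per the submitters' processing notes, STAR, SAMtools, MACS2 3.0.0a7, MACS3, deepTools 3.3.0 and the build mm10 were used, without stated roles. The peak threshold and any shift of read ends are not given in the sources used here. Peak names carry a single library name, so peaks were called per library.

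Starts were converted to 1-based positions and genes taken from a RefSeq table (GRCm38.p6). Regions merge peaks overlapping by at least 1 bp. Percentiles and ranks are within a list. Python 3.11.15 and scipy 1.17.1 were used, and the counting code was tested on simulated peaks.

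With 1 library per group no test was possible, and shares carry Wilson 95% intervals for counting error. Named items are the 10 genes, each gene's highest peak per list, the 3 highest-ranked regions of 4 classes and the 5 genes most like Unc5d, of which 1 is not reported here. Further regions were named after their values were seen. Members and lists were chosen with earlier results of these data known. Alternatives covered gene distance, overlap, list size, score and single genes left out. Sequence of the regions inside the genes was not used here.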

Additional observations from a re-analysis of the deposited data

How the results depend on the processing

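Across 297 alternative values of 19 results, 282 stayed within 1.5 times (counts and densities) or within the counting interval (shares, medians and ratios), and 15 moved, 14 of them when only peaks above percentile 50 of each list were kept. That setting left 105, 68 and 54 peaks near the 10 genes (in the order Halo-Sox2, Halo-Sox2a, control), or 17.5, 11.3 and 8.99 per Mb, since it removes peaks by construction, and median percentiles of 74.0, 69.1 and 76.4. The control density over that near all protein-coding genes became 0.449. Regions of Halo-Sox2 alone became 44.4%, against 25.5% in the genome and 32.3% near other long genes. Regions of all 3 lists became 13.7%, against 31.8% in the genome and 27.0% near other long genes. Shares without a control peak became 78.1% for Halo-Sox2 and 45.6% for Halo-Sox2a, in an alternative chosen after seeing the data, as were 3 on the assignment to genes for these shares. Matching shares of the whole lists or near other long genes were not computed at that score limit. With lists of equal size, regions of the control alone became 12.1%, against 12.9% near other long genes. Leaving out each gene in turn kept the share of Halo-Sox2 alone between 34.6 and 39.2%. No paired analysis was possible because each group has 1 library. No setting measures how far replicate libraries would differ, and depth is unknown.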
